A study of Drosophila melanogaster with 12 samples.

Results

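Outside the yolk protein genes, a small set of genes had far more RNA in female than in male heads of Drosophila melanogaster. The 9 genes described here are P5CDh2, arg, CG10814, Myo61F, CG5246, CG15399, CG31465, CG34148 and CG14626. They were picked by symbol, for a large female excess in these same data, from the 11236 genes of the normalised table, 10568 of which were tested. The female excess is therefore given as a description and without a test, and tests are kept for the comparison of mating systems, which the choice did not use. All 9 passed the filter on low values, a mean value of at least 10 across the table's 12 columns. CG5246 and CG14626 passed it through the females alone, since every male value of these genes lay below 10, and CG10814 did so nearly, with 1 male value above 10.

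The study asked how a mating system alters the head transcriptome over many generations. Populations evolved for 117 generations under monogamy (3 populations) or polygamy (3 populations), and all then passed 1 generation in a shared rearing environment. Heads came from virgin flies aged 4 days, kept in groups of their own sex, and each population gave 1 library per sex, 12 libraries in 4 groups of 3. No strain, transgene or treatment other than the mating system is named in the labels, and the number of flies in a library is not given in the sources used here. P-values in the tests below rest on the spread between libraries, pooled over the 4 groups. A head is a mixture of cell types, and a lower value in a bulk library can reflect fewer cells of a type or less RNA per cell, which cannot be told apart here.

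Each library held between 34558521 and 52282995 recovered reads. The female library of monogamous population 1 stood apart from the others, at -82.6 on a first principal component that held 42.9% of the variance. Neuron markers were lowest there, at 0.0751% of the signal, and the calmodulin gene Cam measured 45941, against 192773 to 275081 in the other 11 libraries. Fat body markers were all in the table (10 of 10), as were those of photoreceptors (8 of 8), and photoreceptor markers took 5.0% to 7.28% of the signal. Markers of the ovary and germline were largely missing from it, with 3 of 10 having a row and a summed share of 0.00013% to 0.00114%. Of testis markers 3 of 6 had a row, and 4 of 5 gut markers did. The labelled tissue thus carried its defining markers.

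The female fly head holds a fat body, a tissue that stores lipid and glycogen, processes amino acids and secretes blood proteins, and females make yolk proteins there as well as in the abdomen. Sex-biased RNA in the head is best known from this tissue, where the sex determination pathway acts on genes such as the yolk protein genes and fit, which encodes a secreted satiety peptide. Arginine breakdown, to which arg and P5CDh2 belong, runs from arginine to ornithine by arginase, from ornithine to pyrroline-5-carboxylate by ornithine aminotransferase, and from there to glutamate or proline.

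P5CDh2 (FBgn0053092) is annotated as one of the fly's delta-1-pyrroline-5-carboxylate dehydrogenases, the mitochondrial enzymes that turn pyrroline-5-carboxylate into glutamate at the end of proline and ornithine breakdown. Its normalised read count in females was 3820, 3838 and 5538 in monogamous populations 1, 2 and 3 and 3236, 4276 and 2581 in polygamous populations 1, 2 and 3. In males it was 159, 152 and 310.5 under monogamy and 390.1, 263 and 124 under polygamy. The lowest female library stood 6.62 times above the highest male library, so the sexes did not overlap. Within a population the female value was 8.30 to 25.3 times the male value, with a median of 19.3, and the smallest ratio belonged to polygamous population 1.

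The gene arg (FBgn0023535) encodes arginase, which splits arginine into ornithine and urea. Its normalised count was 386, 190.3 and 277 in monogamous females and 243, 206 and 132 in polygamous females. Males had 26.8, 34.6 and 56.0 under monogamy and 47.1, 33.9 and 37.0 under polygamy. This was the narrowest separation among the 9 genes, with the lowest female value 2.35 times the highest male value. The ratio within a population ran from 3.56 to 14.4 (median 5.33), the highest being that of monogamous population 1, whose female library stands apart.

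CG10814 (FBgn0033830) is a predicted gamma-butyrobetaine dioxygenase, the enzyme class of the last step of carnitine synthesis, and carnitine carries fatty acids into mitochondria. Its normalised count was 364, 153 and 195 in monogamous females and 80.0, 94.4 and 75.8 in polygamous females. Males had 8.17, 9.36 and 2.33 under monogamy and 3.36, 9.85 and 15 under polygamy. The sexes did not overlap, and females of the 2 mating systems did not overlap either. These male values come from few reads, 2 to 15 per library and 46 in all (95% Poisson interval 33.7 to 61.4, counting error only). The within-population ratio was correspondingly wide, from 5.06 to 83.5 with a median of 20.1.

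Myo61F (FBgn0010246) encodes a class I unconventional myosin, a single-headed motor that links actin to membranes. Its normalised count was 726, 768 and 922 in monogamous females and 774, 638 and 539.6 in polygamous females. Males had 58.3, 98.3 and 109.7 under monogamy and 113, 95.2 and 102 under polygamy. The sexes were well separated, with a lowest female value 4.77 times the highest male value, and the female libraries spanned a range of 1.71 times. The ratio within a population was 5.30 to 12.4 (median 7.33).

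CG5246 (FBgn0038484), a predicted trypsin-like serine protease, had the largest female excess of the set. Its normalised count was 251, 188 and 260.1 in monogamous females and 251, 145 and 87.8 in polygamous females, while males had 3.50, 6.56 and 3.50 under monogamy and 4.48, 5.47 and 4.00 under polygamy. Only 3 to 7 reads lay behind each male value, 26 over the 6 libraries (95% Poisson interval 17.0 to 38.1). The lowest female library was 13.4 times the highest male library, and the within-population ratio ran from 21.9 to 74.3 with a median of 42.4.

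The other 4 genes have no role given here. CG15399 (FBgn0031460) measured 1117, 678 and 737 in monogamous and 509.6, 516 and 411 in polygamous females. Males had 31.5, 45 and 53.7 under monogamy and 44.8, 49.2 and 63.0 under polygamy. As with CG10814, each monogamous female library lay above each polygamous one, and the ratio within a population was 6.53 to 35.5 (median 12.5).

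CG31465 (FBgn0051465) measured 1957, 1857 and 2623 in monogamous and 1585, 1967 and 1110 in polygamous females, against 88.7, 153 and 161 in monogamous and 252, 214 and 107 in polygamous males. CG34148 (FBgn0083984) measured 439, 479 and 715 in monogamous and 495, 602 and 416 in polygamous females, against 45.5, 57.1 and 46.7 in monogamous and 88.5, 78.8 and 56.0 in polygamous males. Like P5CDh2, both were highest among females in monogamous population 3 and lowest in polygamous population 3. The median ratio within a population was 11.3 for CG31465 and 8.02 for CG34148.

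CG14626 (FBgn0040360) was the most even of the 9 genes in females. It measured 47.0, 46.4 and 50.4 in monogamous and 48.3, 50.5 and 53.9 in polygamous females, a span of 1.16 times from the lowest to the highest. Males had 9.33, 6.56 and 7.0 under monogamy and 6.73, 4.38 and 5.99 under polygamy. Those male values rest on 4 to 8 reads per library, 37 in all (95% Poisson interval 26.1 to 51.0). The female ranges of the other 8 genes spanned 1.71 times (Myo61F) to 4.8 times (CG10814).

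**Figure D1:**
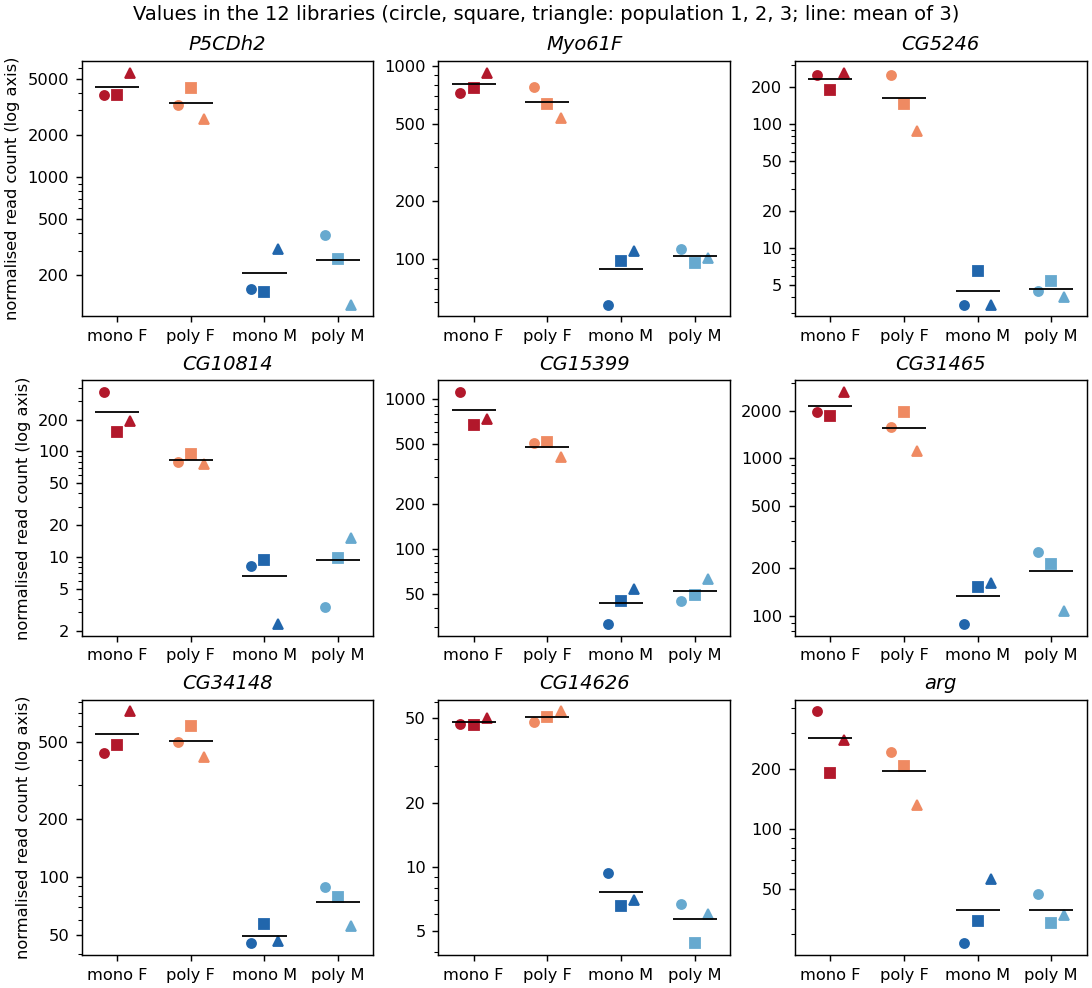
Normalised read count (log axis) of each of the 9 genes in the 12 libraries, by group (mono, monogamous; poly, polygamous; F, female; M, male); symbols mark populations 1, 2 and 3 and lines the mean of 3. Every female library lies above every male library in all 9 panels, by 2.35 times in arg and 13.4 times in CG5246, lowest female against highest male.

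All 9 genes had each female library above each male library, as the choice of genes makes likely. Of all 10568 tested genes, 4.99% showed that order, and 9.27% were called higher in females by limma on log2(value + 1) with Benjamini-Hochberg adjustment. On that log2 scale, which understates the change of low genes, the male minus female difference was -5.08 for CG5246, -4.14 for P5CDh2, -4.12 for CG10814, -3.71 for CG15399 and -3.54 for CG31465. It was -3.08 for CG34148, -2.92 for Myo61F, -2.74 for CG14626 and -2.54 for arg. The yolk protein genes Yp1 (-8.66), Yp2 (-8.49) and Yp3 (-7.59) lay above this set. In all, 20 genes had a female excess at least as large as arg, the 9 described here, the 3 yolk protein genes and 8 others. Just outside the set below arg came the odorant-binding protein genes Obp56f (-2.31) and Obp56a (-2.23).

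**Figure D2:**
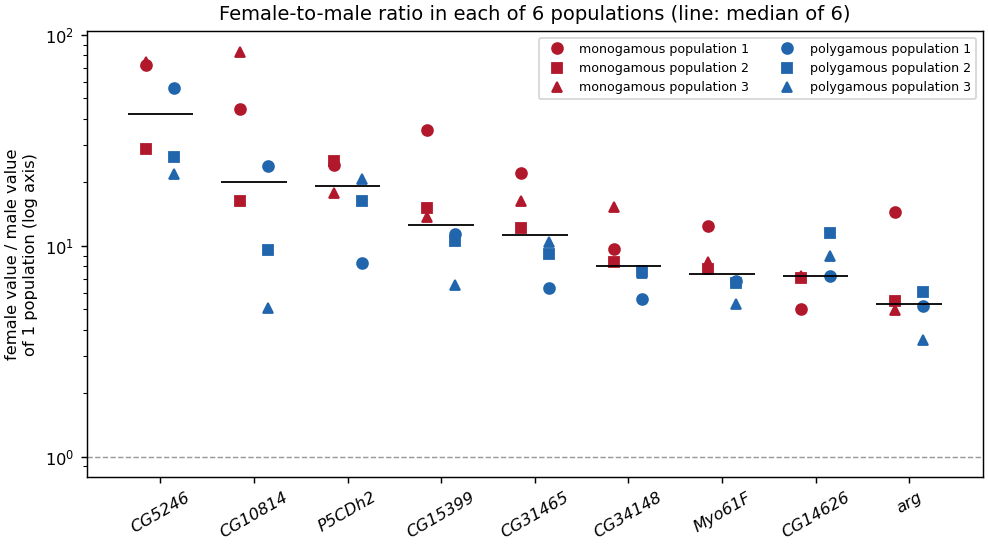
Female value divided by male value within each of the 6 populations (log axis), genes in order of their median, with red for monogamous and blue for polygamous populations and a line at the median of 6. All 54 ratios lie above 1; the medians fall from 42.4 for CG5246 to 5.33 for arg.

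Per kilobase of annotated exon, the order of levels in females was P5CDh2 (1570 ± 405 normalised counts per kb, mean ± SD over 6 libraries), CG34148 (874 ± 189), CG15399 (803 ± 307), CG31465 (601 ± 162), arg (192 ± 70.2), Myo61F (184 ± 33.0), CG5246 (182 ± 64.6), CG10814 (110.0 ± 75.5) and CG14626 (35 ± 1.95). The neighbours CG34148 and CG15399 did not differ beyond their spread, nor did arg, Myo61F and CG5246. In males the order changed, with CG34148 (104 ± 29.4 per kb) and P5CDh2 (94.2 ± 42.7) first, within their spread of each other, and CG10814 (5.49 ± 3.19), CG14626 (4.72 ± 1.14) and CG5246 (4.23 ± 1.12) last and likewise not separable. CG5246 thus stood beside arg and Myo61F in females, at 182 against 192 and 184 per kb, and well under them in males, where arg had 31.6 ± 8.45 and Myo61F 24.3 ± 4.99. The lengths include exon bases shared with other genes, 70.8% for CG34148 (with P5CDh2) and 54.1% for arg (with elav). Whether counting used strand is not known, so the places of CG34148, P5CDh2 and arg in this order are uncertain. The 9 genes together took 0.0178% to 0.0246% of the signal in monogamous females, 0.0118% to 0.0185% in polygamous females, 0.00094% to 0.00163% in monogamous males and 0.00112% to 0.00207% in polygamous males.

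Fat body markers moved with the sex of the library in part. The 10 markers together took 4.42% to 6.16% of the signal in monogamous females, 2.78% to 3.36% in polygamous females, 0.380% to 0.385% in monogamous males and 0.269% to 0.367% in polygamous males, and no marker was at 0. Nearly all of the female share was yolk: Yp1, Yp2 and Yp3 took 3.92% to 5.88% and 2.47% to 2.93% in monogamous and polygamous females, against 0.0110% to 0.0145% in males. The other 7 markers together overlapped between the sexes, at 0.279% to 0.532% in females and 0.256% to 0.374% in males. In that list 5 genes were higher in females (Yp1, Yp2, Yp3, fit and the lipid droplet protein gene Lsd-1) and 2 higher in males (to, and Fatp3 at a limma adjusted p of 0.05 after rounding), while Lsp2, Lsp1gamma and apolpp did not pass. Of all tested genes, 9.27% were called higher in females and 20.2% higher in males. The part of the fat body in the sex difference of the 9 genes was not tested.

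Of the 9 genes 4 lie on chromosome arm 3R, 2 on X (arg and CG14626) and 1 each on 2L (CG15399), 2R (CG10814) and 3L (Myo61F). Among tested genes with a known chromosome, 16.6% lie on X. On 3R, 3 of the 4 are direct neighbours. In the Ensembl release 115 annotation, whose build is later than the authors', CG34148, P5CDh2, CG31465 and fit follow each other as consecutive genes with a row in the table. CG34148 is on the strand opposite to P5CDh2 and shares 425 exon bases with it, 70.8% of its own exon length and 17.2% of that of P5CDh2. CG31465 and fit, on opposite strands, share 67 exon bases (2.18% of CG31465 and 12.6% of fit). An annotated antisense RNA gene without a row here, asRNA:CR45046, covers 74.0% of the exon bases of P5CDh2 and 97.5% of those of CG31465. The strand setting of the counting is not given in the sources used here, so reads of these overlapping genes cannot be assigned with certainty, and the values of CG34148 above all are uncertain.

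The counts of these neighbours did not keep 1 ratio in both sexes. CG34148 stood at 11.5% to 16.1% of the P5CDh2 value in female libraries and at 15% to 45.2% in male libraries. CG31465 stood at 43.0% to 51.2% in females and 51.9% to 101% in males. For CG31465 the ranges of the sexes did not overlap, while for CG34148 they met between 15% and 16.1%. The male values have fewer reads behind them, 39 to 79 per library for CG34148 and 76 to 225 for CG31465.

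The next gene, fit (FBgn0038914), is a female-biased gene of the head fat body that was not picked. It measured 13040 in females and 3285 in males on average (log2 male minus female -2.0, SE 0.22, limma adjusted p = 0.00017). On the other side of the trio, 4 more genes in a row were called higher in females: CG6656 (-0.53, limma adjusted p = 0.0035), CG31178 (-1.47, adjusted p = 0.041), CG31431 (-0.39, adjusted p = 0.0073) and CG31174 (-1.10, adjusted p = 0.0036). This gave a run of 8 consecutive rows, 3 of them the picked genes, a window chosen after the values were seen. The CG31178 call was the least stable, lost without 5 of the 6 populations in turn (limma adjusted p = 0.062 to 0.16), and 1 monogamous male library had 58.4 for it, above every female library. Beyond the run, Cby (-0.14, adjusted p = 0.37) on one side did not pass, and on the other CG17819 was too low to be tested and dnd was higher in males (0.43, adjusted p = 0.0062).

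**Figure D3:**
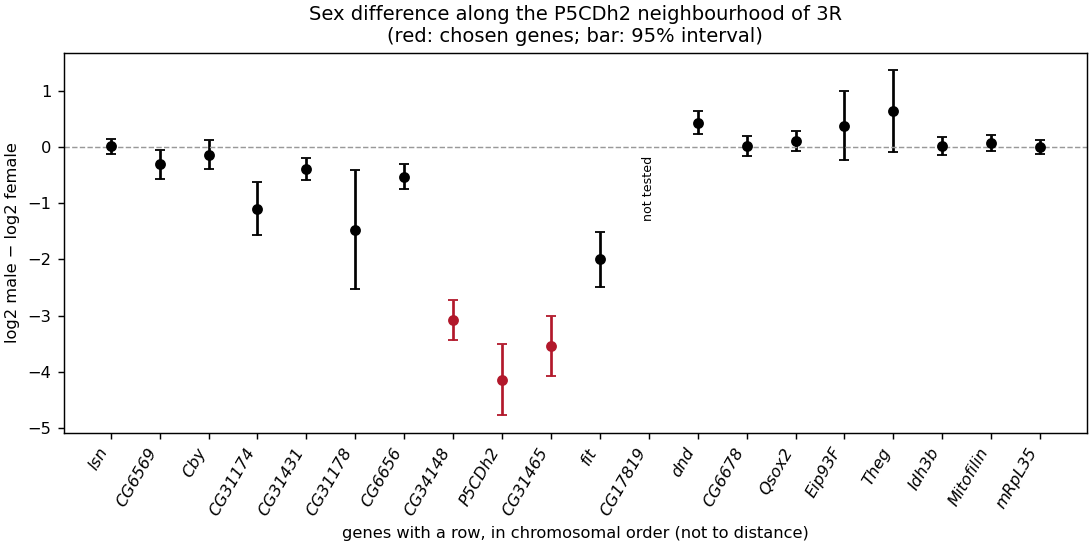
Log2 male minus female difference (limma, bars are 95% intervals) of 20 genes of arm 3R in chromosomal order, spaced evenly and not by distance, with the picked genes in red. The values reach -4.14 at P5CDh2 and return to about 0 at Cby on one side and at CG6678 on the other.

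Beside the picked genes, most neighbours were not called higher in females. Over all 9 genes, 14 different genes that were not picked stood directly beside one of them in the table, and 13 were tested. Higher in females were 4 of 13, fit, CG6656, HINT1 and AttC, against 9.27% of all genes, and higher in males were 2, against 20.2%: Herc4 (0.30, limma adjusted p = 0.006) beside Myo61F and CG4293 (0.36, adjusted p = 0.0041) beside arg. Other settings gave 3 to 5 higher in females (3 with the replicate block) and 0 to 4 higher in males. Their median male minus female difference was -0.06, against 0.13 over all tested genes. HINT1, a nucleotide-binding protein gene on the other strand from CG15399 with 21 shared exon bases, had 5076 ± 1352 in females and 2327 ± 277 in males (SD over 6 libraries; log2 difference -1.09, SE 0.12, limma adjusted p = 0.0002).

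AttC, an antimicrobial peptide gene next to CG10814, ranged from 724 to 6250 in females and from 155 to 2281 in males, so its sexes overlapped. Its call (-2.15, SE 0.72, limma adjusted p = 0.046) was lost without monogamous population 1, where the difference was -1.31 (adjusted p = 0.1), without 4 other populations in turn, and when the female library of monogamous population 1 alone was left out (-1.70, adjusted p = 0.05). It was lost as well with population as a replicate block (adjusted p = 0.088) and after upper-quartile scaling (-2.30, adjusted p = 0.052). The Herc4 call ended under both other scalings of the libraries, and the CG4293 call under upper-quartile scaling (0.21, adjusted p = 0.16). Those not called were ND-ACP (-0.06) beside Myo61F, cher (-0.11) and TwdlW (0.13) beside CG5246, CG17047 (-0.13) beside CG10814, Syt1 (0.74, limma adjusted p = 0.17) beside CG15399, CG11380 (-0.01) beside CG14626 and elav beside arg, while CG14627, on the other side of CG14626, was too low to be tested.

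The gene arg lies within reach of elav, a neuronal RNA-binding protein gene on the opposite strand, and 673 exon bases, 54.1% of the annotated exons of arg, are shared with it. With CG4293, also on the opposite strand, arg shares 88 exon bases (7.08% of its exons). The value of elav was 7461 ± 2507 in females and 9300 ± 861 in males (SD over 6 libraries), higher in males in sign and not called (0.43, limma adjusted p = 0.2). In the female library of monogamous population 1 elav was lowest, at 2523, and arg highest, at 386. Without a strand setting, the reads of arg cannot be told apart from those of elav or CG4293 where the genes overlap.

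Other genes of arginine and proline metabolism did not move as one group between the sexes. Of the 14 other tested genes on that list, 5 were called higher in females, against 9.27% of all tested genes. Higher in males were 5, against 20.2%. The median male minus female difference of the list was 0.18, against 0.13 over all tested genes. Toward females stood Odc1, an ornithine decarboxylase that draws ornithine into polyamines, with 3474 to 7276 in the 6 female and 831 to 1375 in the 6 male libraries (log2 difference -2.10, SE 0.13, limma adjusted p = 4.8e-06). P5cr-2, a reductase that makes proline from pyrroline-5-carboxylate, ranged from 1356 to 2620 in females and from 821 to 1116 in males (-1.05, SE 0.12, adjusted p = 0.00024). Neither gene overlapped between the sexes.

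Also higher in females were Odc2 (-0.61, limma adjusted p = 0.0039), P5CS, which makes pyrroline-5-carboxylate from glutamate (-0.51, adjusted p = 0.024), and the glutamine synthetase gene Gs1 (-0.38, adjusted p = 0.046). Toward males stood P5CDh1, the other dehydrogenase gene of the same step as P5CDh2, with 20356 to 23125 in females and 24476 to 30126 in males (0.36, limma adjusted p = 0.0017). The proline dehydrogenase gene slgA (0.40, adjusted p = 0.00055), the glutamine synthetase gene Gs2 (0.52, adjusted p = 0.00077), Gdh (0.25, adjusted p = 0.021) and P5cr (0.27, adjusted p = 0.034) were higher in males as well. Oat, the aminotransferase between arginase and P5CDh2, had a difference of -0.00 (95% interval -0.21 to 0.21). Oda (0.15), Got1 (0.24) and Got2 (0.22) did not pass.

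P5CDh1 and P5CDh2, the genes of 1 enzymatic step, thus stood on opposite sides. The list's split depended on the scaling of the libraries: 3 genes were higher in males after TMM scaling and 2 after upper-quartile scaling, where the call of P5CDh1 ended (0.21, limma adjusted p = 0.091), and 5 were counted higher in females under each. The counts were 4 higher in females and 6 in males with the replicate block. Without single populations they ran from 3 to 5 in females, with 3 when monogamous population 3, polygamous population 1 or polygamous population 2 was left out, and from 3 to 8 in males. Without the female library of monogamous population 1 the counts were 5 higher in females and 8 higher in males.

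Genes of carnitine synthesis and of the carnitine shuttle, the company of CG10814, were mostly not called. Of the 7 other tested genes 2 were higher in females, against 9.27% of all genes, and 0 in males, against 20.2%. Their median was -0.29, against 0.13 over all genes. CG5321, a predicted paralog of CG10814, ranged from 1141 to 2649 in females and from 742 to 1086 in males (-1.11, SE 0.13, limma adjusted p = 0.00033). The carnitine palmitoyltransferase gene whd was lower in males by a smaller margin (-0.29, adjusted p = 0.021). Tmlh, a predicted first enzyme of carnitine synthesis (-0.46, adjusted p = 0.063), CPT2 (-0.31, adjusted p = 0.051) and colt, the mitochondrial carnitine carrier (-0.27, adjusted p = 0.07), did not pass, nor did CG14630 (-0.10) and CRAT (0.11). After TMM or upper-quartile scaling 5 of the 7 were called higher in females, after a minimum mean value of 50 it was 3, and with the outlying female library left out or with the replicate block it was 4. It was 1 without monogamous population 3 and 1 without polygamous population 2, and 3 without monogamous population 1.

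Unconventional myosins and myosin partners other than Myo61F did not show a female excess. Of 10 tested, 0 were higher in females, against 9.27% of all tested genes. Higher in males were 3, against 20.2%: Myo95E (0.53, limma adjusted p = 0.02), dachs (0.36, adjusted p = 0.027) and Myo10A (0.28, adjusted p = 0.014). Myo31DF, the other class I myosin with a known role in left-right asymmetry, had a difference of 0.10 (95% interval 0.01 to 0.19, adjusted p = 0.088). The rest ran from 0.13 to 0.64 without passing, namely Myo28B1 (0.13), jar (0.13), ck (0.21), ninaC (0.21), didum (0.26) and Cam (0.64). The median was 0.23, and the number called higher in males was 0 after TMM scaling, 1 after upper-quartile scaling and 9 with the outlying monogamous female library left out. Without polygamous population 1, 2 or 3 it was 0, 1 and 0, and without monogamous population 1, 2 or 3 it was 9, 3 and 2. Among 119 other tested trypsin-like serine proteases, the family of CG5246, 19 were higher in females and 18 in males (median 0.06). Over all tested genes the shares were 9.27% in females and 20.2% in males. The protease counts were 24 and 10 after TMM scaling, 23 and 8 after upper-quartile scaling, and 20 and 27 with the outlying female library left out. Without single populations they ran from 13 to 17 in females and from 9 to 23 in males, with 11, 10 and 9 in males when polygamous population 1, 2 or 3 was left out.

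Within the 4 groups, the genes did not rise and fall together as 1 set. Likeness was measured as Pearson's r of deviations from the group mean over 12 libraries, which share populations, scaling and the constraint that deviations cancel within a group of 3. Over the 36 pairs the median r was 0.21, with 21 pairs above 0. Of the 3 pairs above 0.7, 2 were 3R neighbours: P5CDh2 with CG31465 at 0.86 and CG31465 with CG34148 at 0.83. P5CDh2 with CG34148 stood at 0.67. Those are also the genes whose exons overlap one another or the same antisense gene. Outside that trio, CG15399 and arg stood at 0.75 and Myo61F and arg at 0.65. With the outlying female library left out, Myo61F and arg were the most alike of the 36 pairs, at 0.88. The lowest value was -0.76, between P5CDh2 and CG10814, whose male counts are 2 to 15 reads. CG14626 had no r above 0 with any of the other 8.

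Against the 10 fat body markers the genes differed among themselves. The deviations of arg were most like those of Yp1 (r = 0.92), Yp3 (0.87), fit (0.86), Lsd-1 (0.79) and Yp2 (0.75), and the value with Yp1 was 0.93 without the female library of monogamous population 1. With the other 5 markers arg stood at 0.57 (Lsp2), 0.37 (to), 0.22 (Fatp3), -0.02 (Lsp1gamma) and -0.28 (apolpp). CG15399 stood at 0.72 with Yp1, and at 0.51 without that library. P5CDh2 was more like the larval serum protein gene Lsp2 (0.69) and fit (0.61) than Yp1 (0.31), though without that library its r with Yp1 was 0.58. CG10814 ran against Lsp1gamma (-0.78) and Lsp2 (-0.69). CG14626 stayed between -0.35 and 0.36 against the whole marker list.

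**Figure D4:**
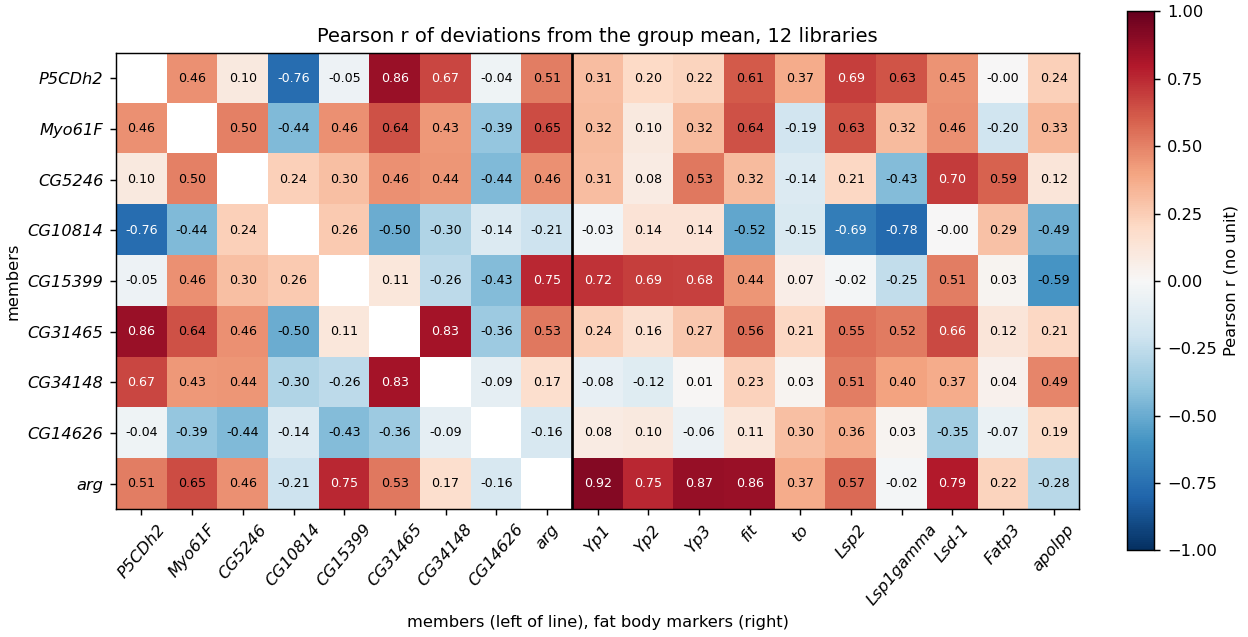
Pearson's r (colour and number) of deviations from the group mean of log2(value + 1) over 12 libraries, between the 9 genes and, right of the line, with the 10 fat body markers. The block of P5CDh2, CG31465 and CG34148 (0.67 to 0.86) stands out, the row of arg runs from -0.28 to 0.92 over the markers, and CG10814 is negative with P5CDh2 (-0.76).

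Over the 12 libraries without removal of group means, where r mostly reflects the sex difference itself, the yolk protein genes were often the nearest in pattern. They were among the 2 nearest for P5CDh2 (Yp1, 0.978), Myo61F (Yp1 and Yp3, both 0.987), CG5246 (Yp3, 0.992, and Yp1, 0.990), CG15399 (Yp3, 0.991) and CG14626 (Yp1, 0.983, and Yp2, 0.982). The nearest gene to P5CDh2 was rost, a membrane protein gene of muscle precursor fusion (0.979), and the nearest to CG15399 was Gar1 (0.993), a component of small nucleolar ribonucleoproteins. For arg they were RpL7-like and NHP2 (both 0.985), for CG34148 eEF1delta (0.984) and the eggshell gene fs(1)M3 (0.983), and for CG31465 CG15019 and the O-mannosyltransferase gene tw (both 0.981). CG10814 had the weakest, bigmax (0.959), a transcription factor of sugar sensing, and CG9616 (0.958).

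The mating system was then compared within each sex, where the choice of genes has no part. In females 8 of the 9 genes had a higher mean under monogamy, and none passed over all genes tested. The 9 genes had a median log2 difference, monogamous minus polygamous, of 0.49, against -0.03 over all genes, of which 45.9% were positive. limma called 0 of 9, as it did 0 of all genes (0%), with 2 of the 9 and 1866 of all genes (17.7%) at an unadjusted p under 0.05. edgeR also called 0 of all genes, and DESeq2 called 270, 2 of them among the 9. Every monogamous female library stood above every polygamous one for 2 of the 9, CG10814 and CG15399, against 8.90% of all genes.

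CG15399 averaged 844 ± 238 in females of monogamous and 479 ± 58.8 in those of polygamous populations (SD, n = 3; log2 difference 0.79, SE 0.24, 95% interval 0.27 to 1.31, limma adjusted p = 0.24). With DESeq2 on recovered reads it was called (0.83, adjusted p = 0.018), and over all other settings its limma or edgeR adjusted p ran from 0.13 to 0.58. CG10814 averaged 237 ± 112 and 83.4 ± 9.75 (log2 difference 1.40, SE 0.55, 95% interval 0.19 to 2.62, limma adjusted p = 0.26). DESeq2 called it too (1.52, adjusted p = 0.016), against 0.13 to 0.58 over all other settings. The highest monogamous value of both genes was in population 1, and without that library the differences were 0.57 and 1.05.

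The other 7 genes had intervals that included 0. CG5246 averaged 233 ± 39.3 and 161 ± 83.0 (0.64, limma adjusted p = 0.31), arg 284 ± 98.1 and 194 ± 56.9 (0.54, adjusted p = 0.34), and CG31465 2145 ± 416 and 1554 ± 429 (0.49, adjusted p = 0.39). P5CDh2 averaged 4399 ± 987 and 3365 ± 855 (0.39, adjusted p = 0.55) and Myo61F 805 ± 103 and 651 ± 118 (0.32, adjusted p = 0.39). CG34148 differed by 0.09 (95% interval -0.41 to 0.59), and CG14626 by -0.08 (95% interval -0.57 to 0.40). Single libraries bore on this: monogamous female population 3 was the highest female library for 5 of the 9 genes and monogamous population 1 for 3, and polygamous female population 3 was the lowest for 8 of 9. The median log2 deviation of the 9 genes from the mean of the other 5 female libraries was 0.57 in monogamous population 3 and -0.73 in polygamous population 3, while over all genes it was -0.01 and 0.04. No fat body marker was called between these groups by limma. The 10 markers had a median difference of 0.57, with Yp1 at 0.77 (limma adjusted p = 0.15). Of these markers Lsp1gamma alone was negative, at -1.44 (adjusted p = 0.29). The summed share of Yp1 to Yp3 was 3.92% to 5.88% in monogamous and 2.47% to 2.93% in polygamous females, while that of the other 7 markers overlapped (0.279% to 0.532% and 0.308% to 0.427%). Their part in the differences was not tested.

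In males the direction was mostly the opposite, again without a call. Of the 9 genes 1 was higher under monogamy in sign, with a median of -0.26 against -0.02 over all genes. Single libraries bore on this as well. Monogamous male population 1 was the lowest male library for 6 of the 9 genes, and polygamous male population 1 the highest for 4. limma called 0 of 9, where 0.643% of all genes were called, and 1 of 9 had an unadjusted p under 0.05, against 11.5% of all genes. edgeR and DESeq2 called 0 of the 9 as well, and 0 of 9 had male groups that did not overlap, against 13.7% of all genes with monogamous above polygamous and 18.1% with the reverse. CG34148 averaged 49.8 ± 6.39 in monogamous and 74.4 ± 16.7 in polygamous males (SD, n = 3; log2 difference -0.55, SE 0.23, 95% interval -1.05 to -0.05, limma adjusted p = 0.37). CG14626 averaged 7.63 ± 1.49 and 5.70 ± 1.20, the one positive difference (0.37, 95% interval -0.12 to 0.85, adjusted p = 0.6). The remaining 7 ran from -0.47 (CG31465) to -0.06 (arg), with limma adjusted p = 0.71 to 0.99.

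**Figure D5:**
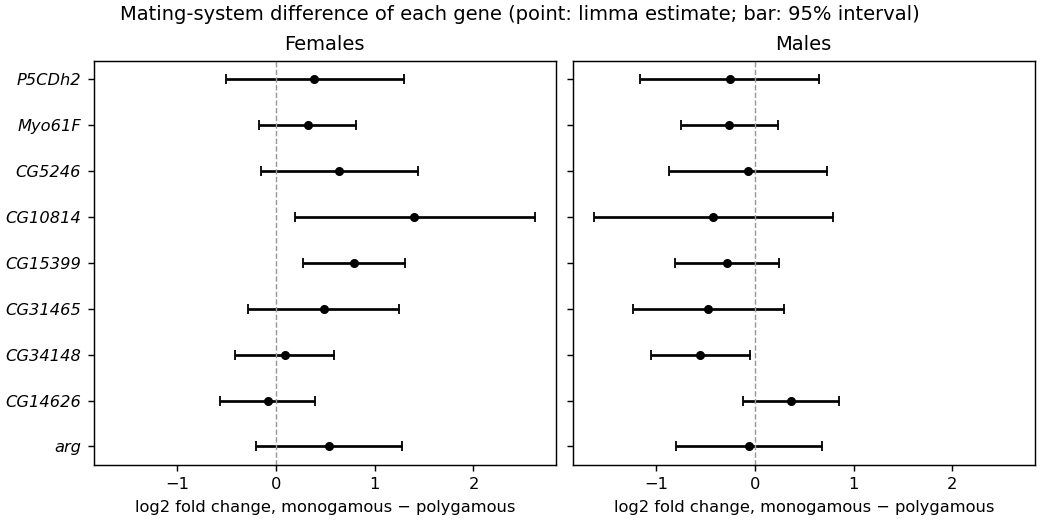
Log2 fold change of each gene, monogamous minus polygamous, in females (left) and males (right), as limma estimates with 95% intervals. In females the intervals of CG10814 (0.19 to 2.62) and CG15399 (0.27 to 1.31) lie above 0, in males that of CG34148 (-1.05 to -0.05) lies below it, and none of the 9 genes passed after adjustment over all genes.

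Whether the female excess itself differed between mating systems was asked with the interaction of sex and mating system. For 8 of the 9 genes the male minus female difference was more negative under monogamy, with a median interaction of -0.65 against 0.01 over all genes. limma called 0 of 9 and 0 of all genes (0%), with 2 of 9 and 576 of all genes (5.45%) at an unadjusted p under 0.05, edgeR called 0 of all genes, and DESeq2 called 63 genes and none of the 9. The 2 with an interval below 0 were CG15399 (-1.07, SE 0.33, 95% interval -1.81 to -0.33, limma adjusted p = 0.64) and CG10814 (-1.82, SE 0.77, 95% interval -3.54 to -0.11, adjusted p = 0.73). In ratios within populations, CG15399 ran from 13.7 to 35.5 in the 3 monogamous and from 6.53 to 11.4 in the 3 polygamous populations. CG10814 ran from 16.4 to 83.5 and from 5.06 to 23.8. The share of all genes whose ratios kept the mating systems apart was not counted, so these ranges are a description only. The other 7 genes ran from -0.95 (CG31465) to 0.45 (CG14626), all at a limma adjusted p of 0.73. Yolk protein genes also had a more negative difference under monogamy, uncalled: Yp1 -1.07 and Yp2 -1.18 (both limma adjusted p = 0.14). For Yp3 the 95% interval was -1.51 to -0.49 (adjusted p = 0.28). Their mating difference was likewise negative in males (-0.30, -0.37 and -0.16) and positive in females (0.77, 0.81 and 0.84). The direction was thus not particular to the 9 genes, though the 10 fat body markers together had a median interaction of -0.17.

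With both sexes of a population averaged, the unit of selection, limma called 0 of 9 and 0 of all genes (0%), with 1 of 9 and 1496 of all genes (14.2%) at an unadjusted p under 0.05. For edgeR and DESeq2 the reads of both sexes were summed by population instead. Female reads dominate such sums for these genes, with 900 female and 46 male reads for CG10814. On the sums edgeR called 0 genes and DESeq2 380, 1 of them among the 9, CG10814. The smallest p among the 9 was that of CG15399, whose mean over both sexes was 0.25 higher under monogamy on the log2 scale (SE 0.09, 95% interval 0.05 to 0.46, limma adjusted p = 0.33). The differences of the other 8 ran from -0.23 (CG34148) to 0.49 (CG10814), and every interval included 0. In the main limma estimates the mating difference had opposite signs in the 2 sexes for all 9 genes, and both signs entered the limma means. Not all of these signs were firm. With single libraries left out, the male difference of P5CDh2, Myo61F, CG5246, CG10814 and arg reached both sides of 0, as did the female difference of CG34148.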

How the data were processed

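Libraries were mRNA libraries of heads, per the labels' protocols from RNAzol extracts and an Illumina mRNA-Seq kit. TopHat2, HTSeq and DESeq2 were used with build BDGP5, per the submitters' processing notes. Versions and whether counting used strand are not stated there. In the deposited table the unit is a signal per gene, reads that each library's own factor scaled to column totals of 45916924 to 45943793. Dividing by the value of 1 read gave whole reads for 100% of values at a tolerance of 0.1 reads, and totals of 34558521 to 52282995 reads. Poisson intervals cover counting error only, and precision was lowest where males had few reads.

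Values were transformed to log2(value + 1), a mean value of at least 10 was required, and limma 3.58.1 (lmFit, then eBayes with trend; R 4.3.3) took 1 mean for each group. P-values were adjusted by Benjamini-Hochberg over 10568 genes and called under 0.05. The scripts were tested on simulated data. edgeR 4.0.16 and DESeq2 1.42.0 on recovered reads, other pseudocounts, filters and scalings, single libraries left out and a replicate block were alternatives. Male and female libraries of 1 population share its history by the labels. Correlations of their deviations around group means were 0.0908 to 0.474. The main fits took no block and did not use this pairing. In the replicate-block alternative, population was the block for the sex difference and the interaction. Library numbers across mating systems name different populations.

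Exon lengths, neighbours and overlaps came from the Ensembl release 115 annotation. Symbols came from a separate list of gene names for 10781 identifiers (455 had none). CG7470, CG4335 and d were matched as P5CS, Tmlh and dachs through synonyms, and serine proteases by symbol or synonym in a RefSeq gene list. The genes named were the 9, their neighbours in the table, the 2 genes nearest in pattern to each, the tested genes of the arginine and proline, carnitine and myosin lists, and yolk genes with fit. The 9 genes and all lists were chosen with earlier results of these data known. Other marker lists, read for the sex difference, had 0 higher in females and 1 in males (neurons), 0 and 1 (photoreceptors), 0 and 4 (glia), 2 and 0 (muscle), 1 and 1 (hemocytes), and 0 and 0 for gut, ovary and testis. Of all tested genes, 9.27% were higher in females and 20.2% in males. Coordinates are not given, since the annotation is of a later build, and no sequence was used.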

Additional observations from a re-analysis of the deposited data

How the results depend on the processing

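The counts of picked genes called held in nearly all settings, at 0 of 9 in each comparison of mating systems and in the interaction. The exception was DESeq2 on recovered reads. DESeq2 called 2 in females (CG10814 at 1.52, adjusted p = 0.016, and CG15399 at 0.83, adjusted p = 0.018) and 1 on reads summed by population. With the replicate block the count of picked genes was 0 in every comparison of mating systems, where the block is an arbitrary library number. It was 0 in the interaction as well, where the block is population. Leaving out single libraries or populations also gave 0 each time. The sex difference of the picked genes was fixed by their choice and shows nothing about stability. It was called for 9 of 9, or for 8 with a minimum mean value of 50, where CG14626 (mean 28.0) was not tested. CG14626 was absent from the comparisons of mating systems under that filter as well. Directions were less firm in males. There edgeR and DESeq2 turned CG5246 (0.02 in both) and arg (0.01 in both) positive. Over the single libraries left out, the male differences ran from -0.71 to 0.12 for P5CDh2, -0.44 to 0.01 for Myo61F, -0.32 to 0.05 for CG5246, -0.95 to 0.10 for CG10814 and -0.34 to 0.17 for arg, and the female difference of CG34148 from -0.12 to 0.23. The cause was not tested. The median likeness of pairs was 0.21, 0.21 after TMM scaling and 0.22 without the outlying library of monogamous females.

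Counts over all genes moved more. In males 68 genes were called, 109 after TMM and 36 after upper-quartile scaling. The number was 423 with males alone in the fit and 101 with the replicate block, here the arbitrary library number. It was 114 with edgeR, 400 with DESeq2, 6 to 11 without single male libraries and 861 with that outlying female library omitted. The interaction had 9 with the replicate block, 63 with DESeq2 and 0 to 9 without single libraries; the female comparison had 0 to 1 without single libraries. The sex difference had 2139 genes higher in males and 980 in females, 837 and 1521 after TMM, and 528 and 1286 after upper-quartile scaling. The median male minus female difference of all genes was 0.127 as deposited, 0.014 after TMM and -0.021 after upper-quartile scaling; without single populations 1709 to 5247 genes differed between the sexes. Depth limits the male values of CG5246, CG10814 and CG14626.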

Other observations

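The 8 genes outside the yolk group with a female excess at least as large as that of arg, listed here after their values were seen and without a test, were a mixed set. By log2 male minus female difference they were snoRNA:Psi28S-1232 (-3.62), SPH93, a serine protease homolog (-2.99), phu (-2.68), CG5172 (-2.67), the odorant-binding protein gene Obp56e (-2.65), a gene without a symbol in the list of gene names (FBgn0028519, -2.63), rost (-2.54) and CG43175 (-2.54). After Obp56f and Obp56a, the next in order were AgmNAT, an agmatine acetyltransferase gene (-2.22), AttC (-2.15) and tobi, a target of insulin signalling (-2.14).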
